A study of Mus musculus with 23 samples.

Results

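Of 27178 genes in the deposited table of mouse orbitofrontal cortex (OFC) RNA-seq, 38 are described here: genes of antigen presentation and genes that interferons induce. They were chosen by name, and each had to reach a normalized count of 10 in at least 5 of 23 libraries. All 38 were found and all 38 met that rule, as did 16385 genes in the whole table. By role they are 10 genes of the class I pathway, 5 of the class II pathway, 4 transcription factors of interferon signalling, 13 genes induced by type I interferon and 6 interferon-inducible GTPases.

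The libraries came from polyadenylated RNA of virally infected OFC tissue of male wild-type C57BL/6J mice, with an age given as 8 weeks. On day 0 every mouse received an AAV6 vector into the OFC with the promoter of GFAP, the astrocyte filament gene, which limits the transgene mainly to astrocytes. The vector expressed ZBTB7A, a zinc-finger transcription factor, together with GFP, or GFP alone. On day 21 the mice met a subthreshold social defeat stress, a mild exposure to an aggressor, or a control procedure. All mice were then tested for behaviour (forced swim, sucrose preference and social interaction) on days 22 to 27, and tissue was taken on day 28. Groups follow the titles and the stress label, since the treatment label lists the defeat step for all 23 libraries. The groups were ZBTB7A stress (n = 5, libraries 7, 9, 17, 25 and 26), GFP stress (n = 8, libraries 3, 4, 5, 12, 13, 20, 21 and 22), ZBTB7A control (n = 5, libraries 6, 14, 15, 23 and 24) and GFP control (n = 5, libraries 1, 2, 10, 11 and 19). Numbers are those of the library titles, and values of 5 libraries are listed below in these orders. The labels do not say whether each library is a separate mouse, so p-values measure the spread between these samples. No group without a virus was analysed here.

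Interferons are secreted when cells sense viral or other foreign nucleic acid. Type I interferons act through a receptor whose kinases activate STAT2, which joins IRF9 in a complex that binds the interferon-stimulated response element (ISRE) in the promoters of antiviral genes. Interferon gamma acts through the gamma-activated site (GAS) and induces IRF1, the transactivators CIITA and NLRC5 and through them the class II and class I pathways. In the healthy brain class II is carried mainly by macrophages of the brain borders and by some microglia, while class I can be induced in most cell types.

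Recovered reads ran from 12.5 to 51.9 M per library. Zbtb7a, the mouse gene that bears the vector's name, ran from 3357 to 3955 normalized counts in the 10 libraries labelled ZBTB7A and from 3033 to 4666 in the 13 labelled GFP, so it was not higher in those labelled ZBTB7A. The species of the vector's insert, and whether its reads would count to the mouse gene, are not given in the sources used here, so these counts check the labels only in part. The summed count of 10 striatal neuron markers, of a region near the OFC, spread from 7008 to 145353 across libraries. In 3 libraries the summed count of 4 neutrophil markers stood apart, at 4866 in GFP stress 13, 3076 in GFP stress 12 and 2785 in ZBTB7A control 23, against 6.52 to 123 in the other 20. B cell markers were also highest in these 3, with sums of 100.5 to 283 against 6.17 to 28.6. Medians of the members are therefore also given without these 3 libraries, an alternative chosen after seeing the data.

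Promoters were read from RefSeq (GRCm38.p6) as 250 bases before to 50 after the start of each gene, and 28 of the 38 members matched. The ISRE core was searched on both strands as GAAA, any 2 bases and GAAA. It was found in 13 of the 28 member promoters and in 3.46% of 27025 promoters of all genes. By role it was in 6 of 10 type I induced genes, 4 of 4 GTPases, 2 of 8 class I genes, 1 of 4 transcription factors and 0 of 2 class II genes. A GAS core, TTCNNNGAA, which reads the same on both strands, was in 5 of the 28 and in 8.13% of all promoters. Bst2 and Igtp held both cores, and in Bst2 the matches overlap. A match is a run of letters and not a measured binding site.

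The following 160 bases upstream of the start, 5′ to 3′ on the strand of the gene with both cores in capitals, show the range among members whose values are given below. Isg15 (chr4:156200819-156200978, minus strand) has 3 overlapping ISRE cores in tandem, Ifit3 (chr19:34583369-34583528, plus strand) has 2 apart, and Rsad2 (chr12:26456453-26456612, minus strand) has 1.
Isg15: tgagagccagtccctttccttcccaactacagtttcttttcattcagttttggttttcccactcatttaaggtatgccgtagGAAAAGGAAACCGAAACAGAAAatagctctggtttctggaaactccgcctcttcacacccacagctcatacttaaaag
Ifit3: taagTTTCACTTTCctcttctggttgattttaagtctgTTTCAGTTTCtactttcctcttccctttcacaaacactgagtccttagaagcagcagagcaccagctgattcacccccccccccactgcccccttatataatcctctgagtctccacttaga
Rsad2: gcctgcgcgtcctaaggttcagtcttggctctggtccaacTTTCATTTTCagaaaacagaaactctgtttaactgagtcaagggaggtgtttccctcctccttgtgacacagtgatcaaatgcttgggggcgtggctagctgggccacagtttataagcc

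Among genes that interferon gamma induces, Gbp2 (chr3:142620503-142620662, plus strand) has an ISRE core, Igtp (chr11:58199396-58199555, plus strand) has a GAS core beside an ISRE core, and Irf1 (chr11:53769854-53770013, plus strand) has a GAS core alone in this window. B2m (chr2:122147527-122147686, plus strand), the light chain of class I, has an ISRE core farther upstream.
Gbp2: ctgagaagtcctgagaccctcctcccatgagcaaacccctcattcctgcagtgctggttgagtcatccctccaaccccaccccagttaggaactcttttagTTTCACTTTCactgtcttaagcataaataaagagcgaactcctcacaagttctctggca
Igtp: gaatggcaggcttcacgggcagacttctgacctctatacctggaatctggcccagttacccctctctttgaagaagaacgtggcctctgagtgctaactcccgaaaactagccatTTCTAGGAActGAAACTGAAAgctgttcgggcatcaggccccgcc
Irf1: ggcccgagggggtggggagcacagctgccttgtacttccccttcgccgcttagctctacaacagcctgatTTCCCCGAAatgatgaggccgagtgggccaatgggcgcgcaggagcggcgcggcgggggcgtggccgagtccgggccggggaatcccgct
B2m: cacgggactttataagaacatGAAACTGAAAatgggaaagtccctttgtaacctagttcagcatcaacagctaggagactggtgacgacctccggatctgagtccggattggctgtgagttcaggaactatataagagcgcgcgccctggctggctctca

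The libraries that most often stood highest for these genes came from all 4 groups. The median within-group SD of the members was 0.37 on the scale of log2(normalized count + 1), against 0.19 over all genes tested. It was 0.79 for class II, 0.41 for type I induced genes, 0.32 for class I, 0.32 for GTPases and 0.20 for the transcription factors. ZBTB7A stress 17 held the highest value of 12 of the 38 members, against 1.35% of all genes tested, and stood above the gene's mean for 37 of 38. ZBTB7A control 23 and GFP control 10 each held the highest value of 6 members, against 0.909% and 8.56% of all genes. GFP stress 5 held the lowest value of 8 members, against 8.13% of all genes, and stood above the mean for 1 of 38. In tissue, more cells of a type and more RNA per cell cannot be told apart.

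**Figure D1:**
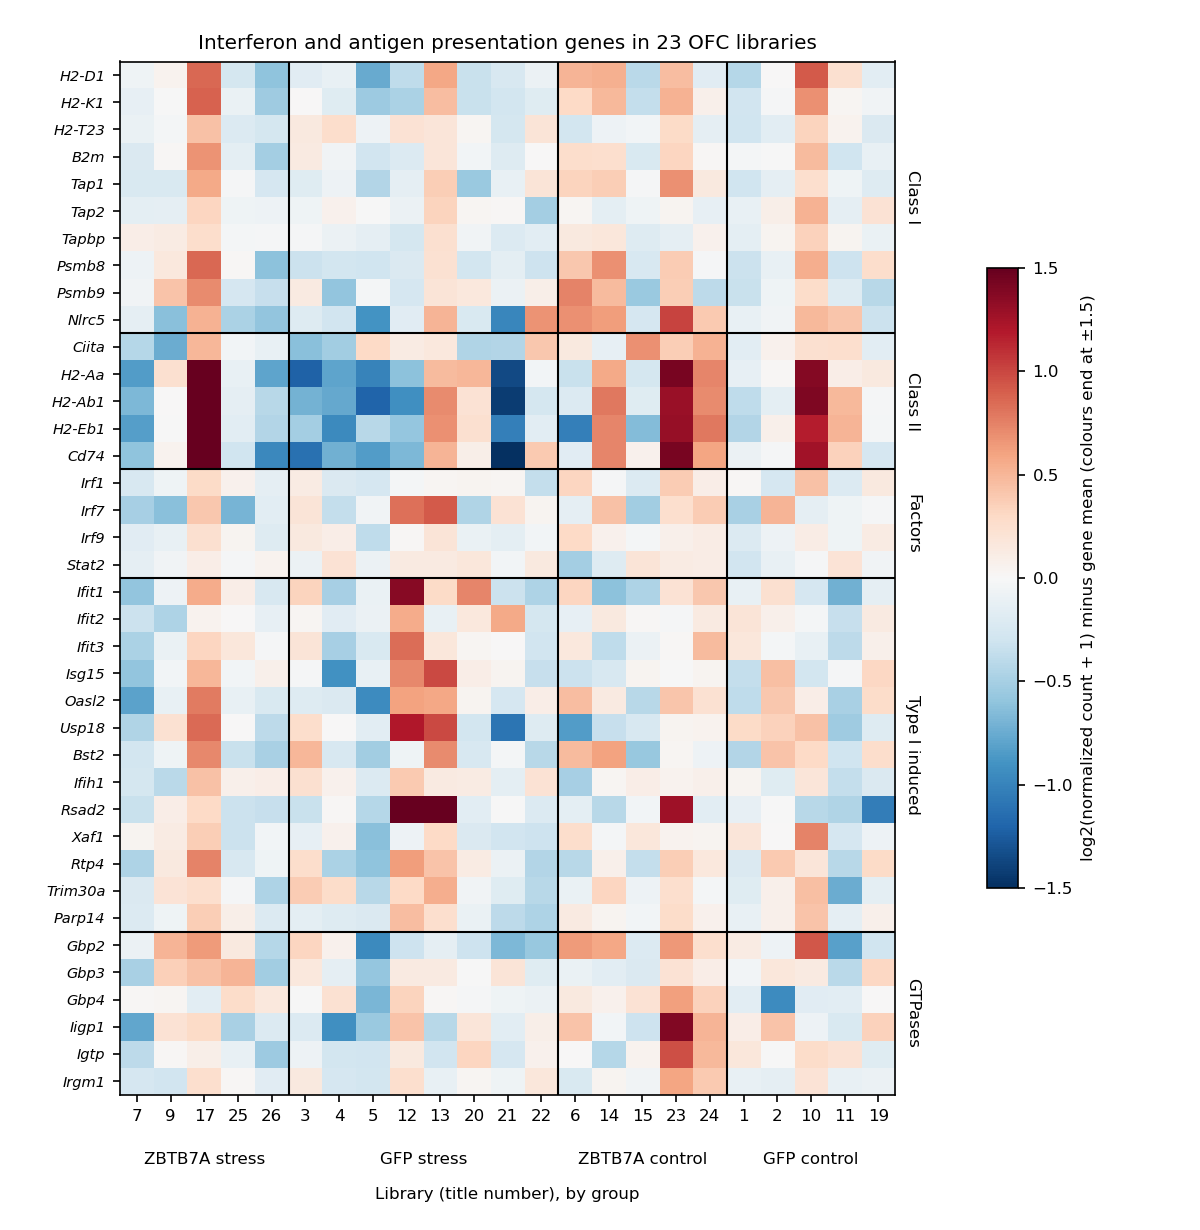
Each row is 1 of the 38 genes and each column 1 of the 23 libraries, by group and title number; colour gives log2(normalized count + 1) minus the mean of the gene over all libraries. The class II genes other than Ciita are dark red in ZBTB7A stress 17, ZBTB7A control 23 and GFP control 10, and Rsad2 is dark red in GFP stress 12 and 13 and ZBTB7A control 23.

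Class I molecules show peptides from inside the cell to T cells. H2-D1 (Entrez 14964), a class I heavy chain, had 1067, 1155, 2028, 929 and 735 normalized counts in ZBTB7A stress and 658 to 1673 (median 968) in GFP stress. It had 1591, 1613, 844, 1531 and 989 in ZBTB7A control and 827, 1123, 2107, 1319.8 and 998 in GFP control. ZBTB7A stress 17 and GFP control 10 were the highest, and the 4 groups overlapped. B2m (Entrez 12010), the light chain, had 2313, 2717, 4285, 2421 and 1881 in ZBTB7A stress and 2204 to 3052 (median 2604) in GFP stress. Its values were 3222, 3202, 2299, 3354 and 2729 in ZBTB7A control and 2627, 2682, 3727, 2189 and 2485 in GFP control. The same 2 libraries led. H2-K1, the other classical heavy chain, ran from 745 to 2009.9 over all libraries, and H2-T23, a nonclassical heavy chain, from 271 to 453.

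Psmb8 and Psmb9 are subunits of the immunoproteasome, which cuts peptides for class I, and Tap1 and Tap2 form the transporter that carries them into the endoplasmic reticulum. Tap1 (Entrez 21354) had 99.2, 98.9, 173, 115 and 97.5 normalized counts in ZBTB7A stress and 78.8 to 149.9 (median 107) in GFP stress. Tap1 values were 147, 150.5, 115, 187 and 129 in ZBTB7A control and 93.8, 106, 139, 111 and 102 in GFP control. In ZBTB7A control all 5 libraries lay above 4 of the 5 GFP control libraries, and GFP control 10 lay within their range. Psmb8 (Entrez 16913) had 103, 122, 200.2, 111 and 70.9 in ZBTB7A stress and 87.2 to 129 (median 90.2) in GFP stress. Psmb8 values were 145, 176, 92.3, 142 and 108 in ZBTB7A control and 87.5, 100.9, 159.9, 88.1 and 131 in GFP control. Again ZBTB7A stress 17 was the highest library and the groups overlapped. Psmb9 ran from 36.1 to 92.7 and Tap2 from 134 to 276. Tapbp (Entrez 21356), which helps to load the peptides, had 751, 763, 840.1, 689.9 and 695 in ZBTB7A stress and 584 to 832 (median 649.9) in GFP stress, against 776, 790.1, 612, 638 and 735 in ZBTB7A control and 634, 724, 895, 721 and 653 in GFP control. Tapbp had the least spread of the members, 1.53-fold from lowest to highest library, and its groups overlapped. Tap1 and Psmb9 start back to back on opposite strands, and reads over both cannot be told apart where the strand is not used in counting. The 225 bases between their starts (chr17:34187331-34187555, GRCm38.p6, plus strand), which serve both genes, held neither core.
Tap1 and Psmb9: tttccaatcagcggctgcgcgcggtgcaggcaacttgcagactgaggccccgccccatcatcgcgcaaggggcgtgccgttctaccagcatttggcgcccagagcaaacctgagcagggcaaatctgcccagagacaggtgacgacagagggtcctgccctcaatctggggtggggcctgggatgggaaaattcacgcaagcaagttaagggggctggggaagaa

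Nlrc5 (Entrez 434341), the transactivator of class I genes, had 42.1, 29.7, 67.03, 32.9 and 30.2 normalized counts in ZBTB7A stress and 22.9 to 74.1 (median 39.8) in GFP stress. It had 75.2, 72.2, 38.7, 94.0 and 61.1 in ZBTB7A control and 42.8, 44.4, 65.3, 61.9 and 36.7 in GFP control. In ZBTB7A stress 4 of 5 libraries were at 42.1 or below, whereas 4 of 5 ZBTB7A control libraries were at 61.1 or above. Library 17 of the first group and library 15 of the second crossed over.

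Class II molecules show peptides taken up from outside the cell, and their genes had the widest spread of the 5 roles. H2-Ab1 (Entrez 14961), a class II beta chain, had 70.7, 114, 402, 103 and 84.4 normalized counts in ZBTB7A stress and 41.5 to 186 (median 67.4) in GFP stress. It had 97.9, 196, 99.8, 278 and 185 in ZBTB7A control and 86.3, 102, 301, 159 and 111 in GFP control. Cd74 (Entrez 16149), the invariant chain that guides class II through the cell, had 204, 325, 1142, 252 and 159 in ZBTB7A stress and 105 to 444 (median 192) in GFP stress. The values of Cd74 were 276, 519, 326, 842 and 471 in ZBTB7A control and 293, 308, 750.2, 397 and 261 in GFP control. H2-Aa (Entrez 14960), a class II alpha chain, had 69.7, 148, 470.1, 116 and 72.4 in ZBTB7A stress and 48.7 to 177 (median 77.0) in GFP stress, against 99.7, 187, 104, 339.8 and 209.9 in ZBTB7A control and 115, 127, 328, 135 and 139.7 in GFP control. From lowest to highest library Cd74 varied 10.9-fold, H2-Ab1 9.68-fold, H2-Aa 9.65-fold and H2-Eb1 6.80-fold, and ZBTB7A stress 17 was highest for all of these. Ciita (Entrez 12265), the transactivator of class II genes, varied less, 2.78-fold. Ciita had 29.1, 23.1, 56.0, 38.2 and 36.5 in ZBTB7A stress and 25.2 to 52.5 (median 35.8) in GFP stress, against 43.7, 36.1, 64.0, 51.2 and 57.1 in ZBTB7A control and 35.3, 41.2, 46.6, 47.2 and 35.3 in GFP control. Ciita was highest in ZBTB7A control 15, a library in which Cd74 was not high.

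Markers of border macrophages and monocytes moved with class II in part. Their summed count over 8 of 8 listed markers, most of it Lyz2, was 988 to 6211 in ZBTB7A stress, 582 to 4653 in GFP stress, 1426 to 5619 in ZBTB7A control and 475 to 6006 in GFP control. The highest sums were in ZBTB7A stress 17, GFP control 10, ZBTB7A control 14 and GFP stress 13. Their class II levels were 1.82, 1.26, 0.73 and 0.51 (median of the 5 genes, log2, relative to the mean of each gene). That order follows Lyz2. A mean level (log2, relative to the mean of each gene) was taken over the 7 markers that passed the filter, which leaves out Ly6c2. By that level these libraries stood at 0.47, -0.19, 0.22 and 0.83. ZBTB7A control 23, with a class II level of 1.30, had a macrophage sum of 1582 but a mean level of 0.83, level with GFP stress 13 and above the other 21 libraries, and a B cell sum of 146. The 8 microglia markers had sums of 9379 to 11484 in ZBTB7A stress, 8105 to 11543 in GFP stress, 8909 to 12063 in ZBTB7A control and 7716 to 12563 in GFP control. The part of border macrophages and B cells in the class II values was not tested. Of the 8 T and NK cell markers, 7 had medians over the 23 libraries of 0.889 to 3.15, with Cd3e at 0 to 10.5 and 0 in 4 libraries and Nkg7 at 0 to 21.7. The other marker, Cd4, was at 32.95 to 1743, with a median of 412. Cd4 was highest in ZBTB7A control 6, which had the highest striatal marker sum (145353). It was lowest in GFP stress 5, 12, 20 and 21, at 32.95 to 50.7, which had the lowest striatal sums (7008 to 9280). Which cells carried Cd4 was not tested.

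Irf1, Irf7, Irf9 and Stat2 are the factors that carry the interferon signal to the nucleus or amplify it. Irf7 (Entrez 54123), which drives further type I interferon production, had 38.1, 34.6, 71.6, 32.9 and 48.5 normalized counts in ZBTB7A stress and 39.4 to 103 (median 58.8) in GFP stress. It had 48.96, 73.7, 37.2, 64.5 and 70.9 in ZBTB7A control and 38.4, 77.5, 49.3, 51.8 and 53.6 in GFP control. GFP stress 12 and 13 were the highest, at 96.9 and 103. Irf1 (Entrez 16362), an early factor downstream of interferon gamma, had 169, 191, 244, 209.8 and 182 in ZBTB7A stress and 156 to 218 (median 200.5) in GFP stress, against 252, 199, 174, 261 and 215 in ZBTB7A control and 203, 168, 273, 174 and 222 in GFP control. Irf9 (Entrez 16391), the DNA-binding partner of STAT2, had 220.0, 227, 292, 253 and 215 in ZBTB7A stress and 189 to 282 (median 246) in GFP stress, against 302, 259, 241, 261 and 266 in ZBTB7A control and 214, 233, 267, 237 and 268 in GFP control. Stat2 (Entrez 20847) had 562, 597, 661, 611 and 641 in ZBTB7A stress and 579.7 to 721 (median 681) in GFP stress, against 434, 540.3, 707, 676 and 667 in ZBTB7A control and 506, 572, 612, 712 and 595 in GFP control. Irf9 and Stat2 had the least spread, 1.60-fold and 1.66-fold from lowest to highest library, and all 4 groups overlapped for each factor.

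The 13 type I induced genes code for proteins that block viral replication or curb the response. Ifit3 (Entrez 15959), an antiviral tetratricopeptide protein with the 2 ISRE cores printed above, had 98.7, 129, 173, 155 and 136 normalized counts in ZBTB7A stress and 97.7 to 247 (median 140.0) in GFP stress. Ifit3 had 154, 105, 129.5, 139.6 and 193 in ZBTB7A control and 155, 135, 128, 105 and 145 in GFP control. The highest library was GFP stress 12. Isg15 (Entrez 100038882), a ubiquitin-like modifier, had 24.6, 36.3, 53.3, 36.5 and 39.61 in ZBTB7A stress and 19.5 to 75.5 (median 37.8) in GFP stress. Isg15 had 29.7, 31.6, 38.7, 37.3 and 38.6 in ZBTB7A control and 29.0, 51.6, 30.6, 37.1 and 46.6 in GFP control. Here GFP stress 13 and 12 led, with ZBTB7A stress 17 after them.

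Usp18 (Entrez 24110) removes Isg15 from proteins and damps the receptor. Usp18 values were 14.03, 23.1, 35.8, 19.6 and 14.6 in ZBTB7A stress and 8.60 to 46.2 (median 18.4) in GFP stress, against 10.5, 15.05, 16.4, 20.02 and 20.2 in ZBTB7A control and 23.9, 25.02, 26.7, 13.1 and 16.9 in GFP control. Bst2 (Entrez 69550), which tethers budding virus, had 94.7, 110.4, 191, 91.6 and 81.8 in ZBTB7A stress and 79.8 to 189 (median 104) in GFP stress, against 161, 176, 77.4, 118 and 109.6 in ZBTB7A control and 85.0, 156, 143, 93.6 and 138 in GFP control. Both genes overlapped between all groups. Ifit2 (Entrez 15958), another tetratricopeptide protein, had 217, 196, 282, 273 and 249 in ZBTB7A stress and 227 to 404 (median 266) in GFP stress, against 250.03, 301, 275, 268 and 298 in ZBTB7A control and 310.5, 287, 265, 213 and 298 in GFP control. Xaf1 (Entrez 327959), an interferon-induced promoter of apoptosis, had 88.7, 93.9, 111, 68.5 and 83.4 in ZBTB7A stress and 55.5 to 106 (median 76.3) in GFP stress, against 103, 84.3, 96.8, 89.5 and 88.8 in ZBTB7A control and 97.6, 86.3, 145, 71.9 and 81.8 in GFP control. Ifit2 was highest in GFP stress 21 and Xaf1 in GFP control 10, and their groups overlapped. Of the others, Ifit1 ran from 33.2 to 145, Oasl2 from 60.7 to 203, and Ifih1, a sensor of double-stranded RNA, from 96.2 to 185. Rtp4 ran from 39.9 to 103, Trim30a from 45.6 to 112 and Parp14 from 105 to 201. Of the 13, GFP stress 12 was highest for 4, ZBTB7A stress 17 for 4 and GFP stress 13 for 3.

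Interferon-inducible GTPases act on the vacuoles in which intracellular pathogens live. Gbp2 (Entrez 14469), a guanylate-binding protein, had 109, 165, 180.0, 128 and 85.5 normalized counts in ZBTB7A stress and 59.0 to 144 (median 92.8) in GFP stress. Gbp2 had 180.1, 173, 99.8, 181 and 138 in ZBTB7A control and 126, 109, 221, 64.9 and 93.1 in GFP control. Gbp4 (Entrez 17472), of the same family, had 68.2, 69.2, 60.6, 81.8 and 75.6 in ZBTB7A stress and 41.7 to 85.5 (median 66.9) in GFP stress. Without stress the groups of Gbp4 did not overlap, with 75.2, 70.7, 78.9, 104 and 85.9 in ZBTB7A control and 60.5, 34.7, 60.0, 60.3 and 67.7 in GFP control. The annotation of Gbp4 overlaps that of Gbp8 and Gbp9, and reads of these near-identical copies may be split between them. Gbp3, with an ISRE core in its promoter, ran from 76.4 to 164.

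Igtp (Entrez 16145), an immunity-related GTPase with both cores printed above, had 80.2, 107, 113, 97.8 and 72.4 normalized counts in ZBTB7A stress and 86.7 to 133 (median 94.7) in GFP stress. Igtp had 107, 78.3, 110.2, 209 and 149 in ZBTB7A control and 119.6, 106, 128, 124 and 93.1 in GFP control. Its annotation overlaps that of Irgm2. Irgm1 (Entrez 15944), which regulates the other GTPases of this family, had 194, 189.5, 275, 235 and 206 in ZBTB7A stress and 191 to 275 (median 228) in GFP stress, against 198, 238, 223, 349 and 304 in ZBTB7A control and 214, 211, 267, 213 and 217 in GFP control. ZBTB7A control 23 was the highest library for Igtp, Irgm1, Gbp4 and Iigp1, with Iigp1 at 123 there against 24.04 to 66.3 elsewhere. Iigp1 (Entrez 60440), another immunity-related GTPase, had 26.6, 54.4, 56.9, 32.9 and 40.1 in ZBTB7A stress and 24.04 to 62.6 (median 40.9) in GFP stress, against 62.9, 45.1, 37.2, 123 and 66.3 in ZBTB7A control and 49.7, 62.9, 44.0, 39.4 and 59.3 in GFP control.

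**Figure D2:**
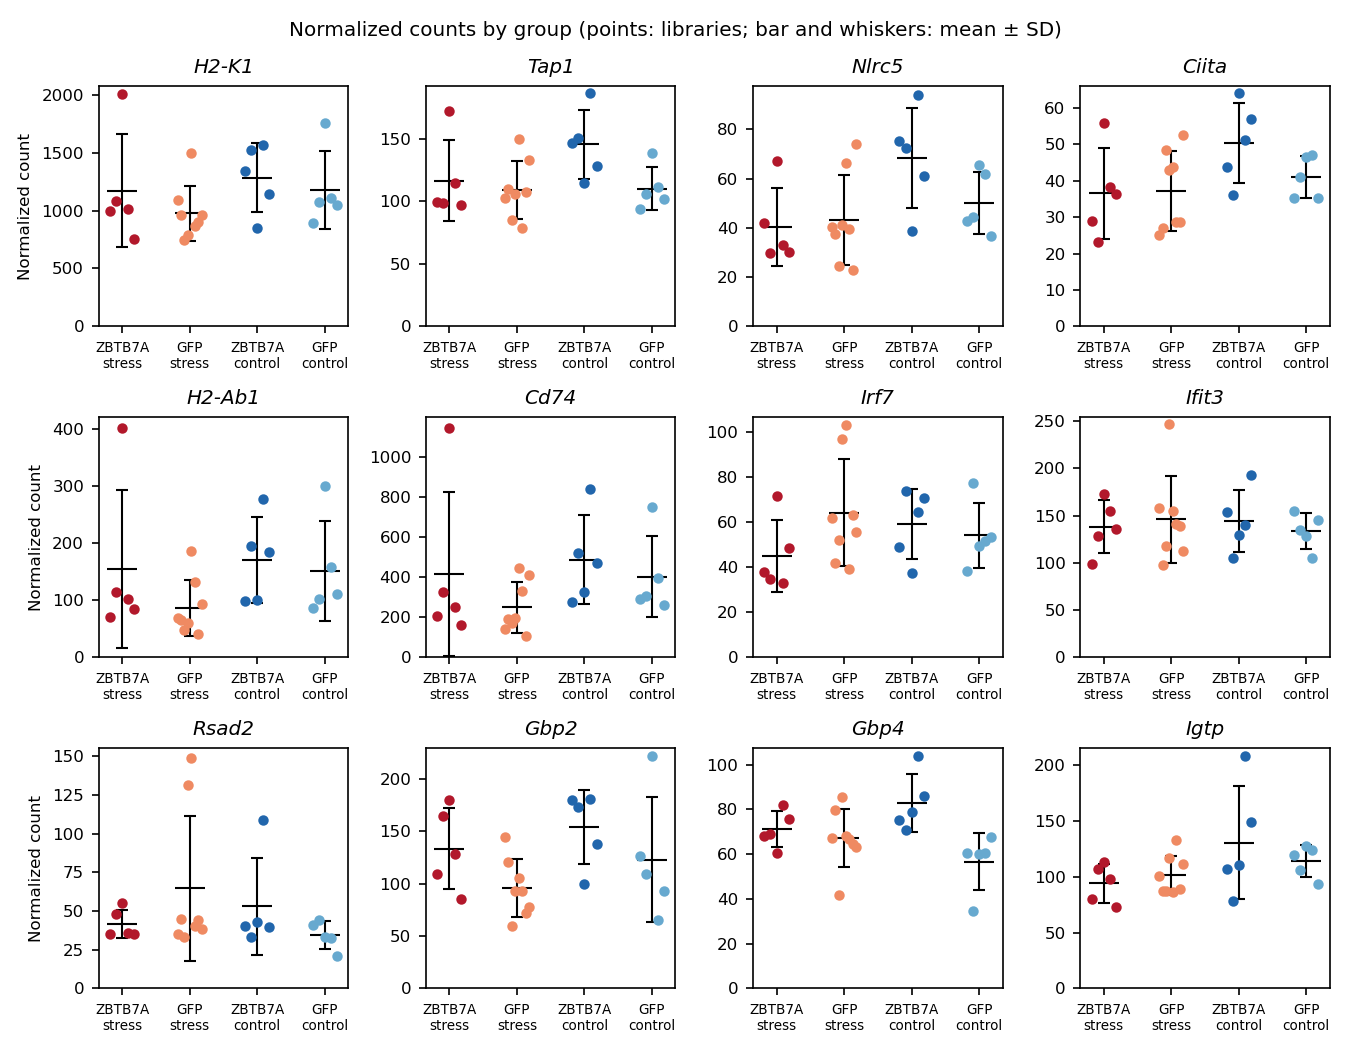
Normalized counts of 12 of the genes, 1 panel each, with 1 point per library and the mean and SD of each group as a bar with whiskers; all axes start at 0. The single high point of ZBTB7A stress in H2-K1, H2-Ab1 and Cd74 is library 17, and Gbp4 is the gene whose ZBTB7A control and GFP control points do not overlap.

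The group means were then compared in 1 limma fit over all 16385 genes. Each contrast is a difference in log2(normalized count + 1), given with its SE, and p-values were adjusted over all genes. Counts of members at an unadjusted p under 0.05 in alternative fits, given below, come without the share of all genes in those fits. At an adjusted p under 0.05, 0 of 38 members and 0 of 16385 genes (0%) passed in each of the 7 contrasts. With edgeR on the recovered reads 0 members and 0 genes passed in each. With DESeq2 0 members passed in each, with 46 genes for the virus effect with stress, 39 for stress under GFP, 7 for the virus effect averaged over stress, 3 for the interaction, 1 for stress under ZBTB7A, 1 for stress averaged over virus and 0 for the virus effect without stress.

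What the ZBTB7A vector did in unstressed mice is addressed by ZBTB7A control against GFP control. Members lay mostly to the ZBTB7A side: 29 of 38 had a log2 difference above 0, with a median of 0.12 against -0.01 over all genes. By role the medians were 0.24 for GTPases (5 of 6 above 0), 0.21 for class II (4 of 5), 0.13 for class I (8 of 10), 0.10 for the transcription factors (3 of 4) and 0.04 for type I induced genes (9 of 13). Unadjusted p was under 0.05 for 2 members, both higher in ZBTB7A control, against 0.738% of all genes higher, 0.995% lower and 1.73% in either direction. They were Gbp4, with a difference of 0.56 ± 0.18, and Tap1, with 0.39 ± 0.18. Their number was 1 without ZBTB7A control 14 or 23, GFP control 1, 2 or 19, or the 3 libraries with neutrophil markers, and with the microglia level as a covariate, and 3 with array weights. Their limma adjusted p of 0.9999 did not pass. Gbp4 was the 1 member without overlap between these groups, against 0.226% of all genes (0.116% higher and 0.11% lower), and its mean was 82.9 ± 13 in ZBTB7A control and 56.6 ± 12.7 in GFP control (SD, n = 5 each). Within the 3 runs of title numbers the Gbp4 difference was 0.70, 0.31 and 0.48 and the Tap1 difference 0.56, 0.08 and 0.60. Within-run differences here and below rest on 1 library for some groups. These are ZBTB7A control 6 in run 1, ZBTB7A stress 17 in run 2 and GFP control 19 in run 3. Nlrc5 (0.41 ± 0.30), Gbp2 (0.41 ± 0.28) and Irgm1 (0.20 ± 0.14) had the next smallest p. Leaving out ZBTB7A control 23 gave a median of 0.05 over the members, 0.01 over class II and 0.06 over GTPases, and of these groups it is the library among the 3 with neutrophil markers. The members' median was 0.06 once GFP control 11 was dropped, 0.19 once GFP control 10 was dropped and 0.21 once ZBTB7A control 15 was dropped.

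With stress, ZBTB7A stress against GFP stress showed no common direction over the list. Of 38 members 20 had a log2 difference above 0, with a median of 0.01 against 0.01 over all genes. Class II stood at a median of 0.50 (4 of 5 above 0) and class I at 0.12 (8 of 10), whereas type I induced genes stood at -0.06 (3 of 13), the transcription factors at -0.05 (1 of 4) and GTPases at 0.05 (4 of 6). Without ZBTB7A stress 17 the class II median was 0.04, the class I median -0.05 and the median of all members -0.12. The median of all members was also below 0 without GFP stress 5 (-0.03) or GFP stress 4 (-0.01), with edgeR (-0.01), with DESeq2 (-0.01) and with the microglia level as a covariate (-0.03). It was 0.13, with 31 of 38 above 0, without GFP stress 12 and 13 and ZBTB7A control 23. An unadjusted p under 0.05 was reached by 0 members, against 16.1% of all genes (9.13% higher and 6.95% lower). Groups did not overlap for 0 members, against 1% of all genes (0.458% higher and 0.543% lower). The 10 striatal markers summed to 35828 to 95547 in ZBTB7A stress and 7008 to 54796 in GFP stress, and with their level as a covariate the class I median was -0.01. The type I median was 0.06 without ZBTB7A stress 7, -0.23 without ZBTB7A stress 17 and 0.11 without the libraries with neutrophil markers, a fit in which 2 members had an unadjusted p under 0.05.

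The smallest p in this comparison belonged to Irf7, with a difference of -0.48 ± 0.24 (limma adjusted p = 0.323), and means of 45.1 ± 16 in ZBTB7A stress (n = 5) and 64.3 ± 23.6 in GFP stress (n = 8). The Irf7 difference was -0.49, -0.47 and -0.36 within the runs of title numbers, and -0.25 without the libraries with neutrophil markers, of which GFP stress 12 and 13 were its 2 highest. In run 2 the difference set ZBTB7A stress 17 alone against those same GFP stress 12 and 13. Tapbp followed at 0.17 ± 0.09, Gbp2 at 0.48 ± 0.25, Ifit2 at -0.25 ± 0.13 and H2-Ab1 at 0.67 ± 0.41, with a limma adjusted p of 0.335 to 0.412. Ifit2 stood at 0.01 once the striatal level was a covariate.

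Under the ZBTB7A vector, stressed libraries were set against unstressed ones. The unstressed ones are the same ZBTB7A control libraries that were set against GFP control above, so both contrasts turn on that group. The list lay to the lower side, with 9 of 38 members above 0 and a median of -0.17, against 0.01 over all genes. The medians were -0.36 for class II (0 of 5 above 0), -0.23 for GTPases (1 of 6), -0.17 for class I (3 of 10), -0.14 for the transcription factors (1 of 4) and -0.07 for type I induced genes (4 of 13). Unadjusted p was under 0.05 for 4 members, all lower in ZBTB7A stress, against 0.58% of all genes lower, 1.08% higher and 1.66% in either direction. These were both transactivators and a pair of GTPases: Nlrc5 at -0.76 ± 0.30, Igtp at -0.41 ± 0.20, Ciita at -0.49 ± 0.23 and Iigp1 at -0.59 ± 0.28. That count moved with most settings, for which the share of all genes is not given here. It was 9 without ZBTB7A stress 17, 6 with array weights, 1 with TMM scaling and with only the groups compared, and 0 without ZBTB7A control 23 or without the 3 libraries with neutrophil markers. It was 1 without ZBTB7A stress 7, 25 or 26, ZBTB7A control 24, GFP stress 13 or 21, or GFP control 1, 2, 10 or 11, and 2 without GFP stress 3, 5, 12, 20 or 22 or GFP control 19 and with each covariate. None passed adjustment (limma adjusted p = 0.9997 for each), and groups did not overlap for 0 members, against 0.421% of all genes (0.244% higher and 0.177% lower). Tap1 had the next smallest p, at -0.33 ± 0.18.

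Nlrc5 averaged 40.4 ± 15.7 in ZBTB7A stress and 68.2 ± 20.3 in ZBTB7A control (SD, n = 5 each). Its difference was -1.07, 0.34 and -1.24 within the runs of title numbers, so it did not hold in the second run, which contains ZBTB7A stress 17 as its ZBTB7A stress library. Igtp (-0.20, 0.28 and -1.06), Ciita (-0.73, 0.21 and -0.52) and Iigp1 (-0.71, 0.46 and -1.29) likewise turned in that run. Without the libraries with neutrophil markers, here ZBTB7A control 23, the differences were -0.63 for Nlrc5, -0.47 for Ciita, -0.34 for Iigp1 and -0.22 for Igtp, with 0 members under an unadjusted p of 0.05. The median of the members was -0.10 in that fit, -0.06 without ZBTB7A stress 26 and -0.29 without ZBTB7A stress 17. The class II median was -0.15 without ZBTB7A control 23 and -0.78 without ZBTB7A stress 17.

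Under the GFP vector, GFP stress set against GFP control asks what the stressor did without ZBTB7A. The class II genes stood lower, with a median of -0.74 and 0 of 5 above 0, while type I induced genes had a median of 0.04 (8 of 13 above 0). Over the list 14 of 38 were above 0 with a median of -0.07, against -0.01 over all genes. The means of Cd74 were 249 ± 128 in GFP stress (n = 8) and 402 ± 201 in GFP control (n = 5), and those of H2-Ab1 were 87.0 ± 49 in GFP stress and 152 ± 87.7 in GFP control. The differences were -0.81 ± 0.41 for H2-Ab1 (limma adjusted p = 0.460), -0.81 ± 0.43 for H2-Aa (limma adjusted p = 0.481) and -0.74 ± 0.42 for Cd74 (limma adjusted p = 0.509). Within the runs of title numbers H2-Ab1 was at -0.62, -1.05 and -0.47 and Cd74 at -0.84, -0.89 and -0.10. Without GFP control 10 the class II median was -0.49, and with the microglia level as a covariate it was -0.63. Choroid plexus and ependyma markers moved in the same contrast, with sums of 173 to 895 in GFP stress and 913 to 9125 in GFP control, which did not overlap. Striatal neuron marker sums were 7008 to 54796 in GFP stress and 25486 to 69696 in GFP control. The part of either tissue in the class II difference was not tested.

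Rsad2, an antiviral radical enzyme also called viperin, had a difference of 0.67 ± 0.35 (limma adjusted p = 0.465), and Xaf1 one of -0.28 ± 0.15 (limma adjusted p = 0.493). An unadjusted p under 0.05 was reached by 0 members in this comparison, against 11.2% of all genes (3.27% higher and 7.96% lower). Without the libraries with neutrophil markers 4 members reached it, and the share of all genes in that fit is not given here. Groups did not overlap for 0 members, against 0.372% of all genes (0.116% higher and 0.256% lower). Without GFP stress 12 and 13, the libraries of these groups with neutrophil markers, Rsad2 was at 0.22, the median of the type I induced genes at -0.21 and that of all members at -0.19. The median of all members was -0.01 without GFP stress 5, -0.03 without GFP control 10 and -0.14 without GFP control 11.

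**Figure D3:**
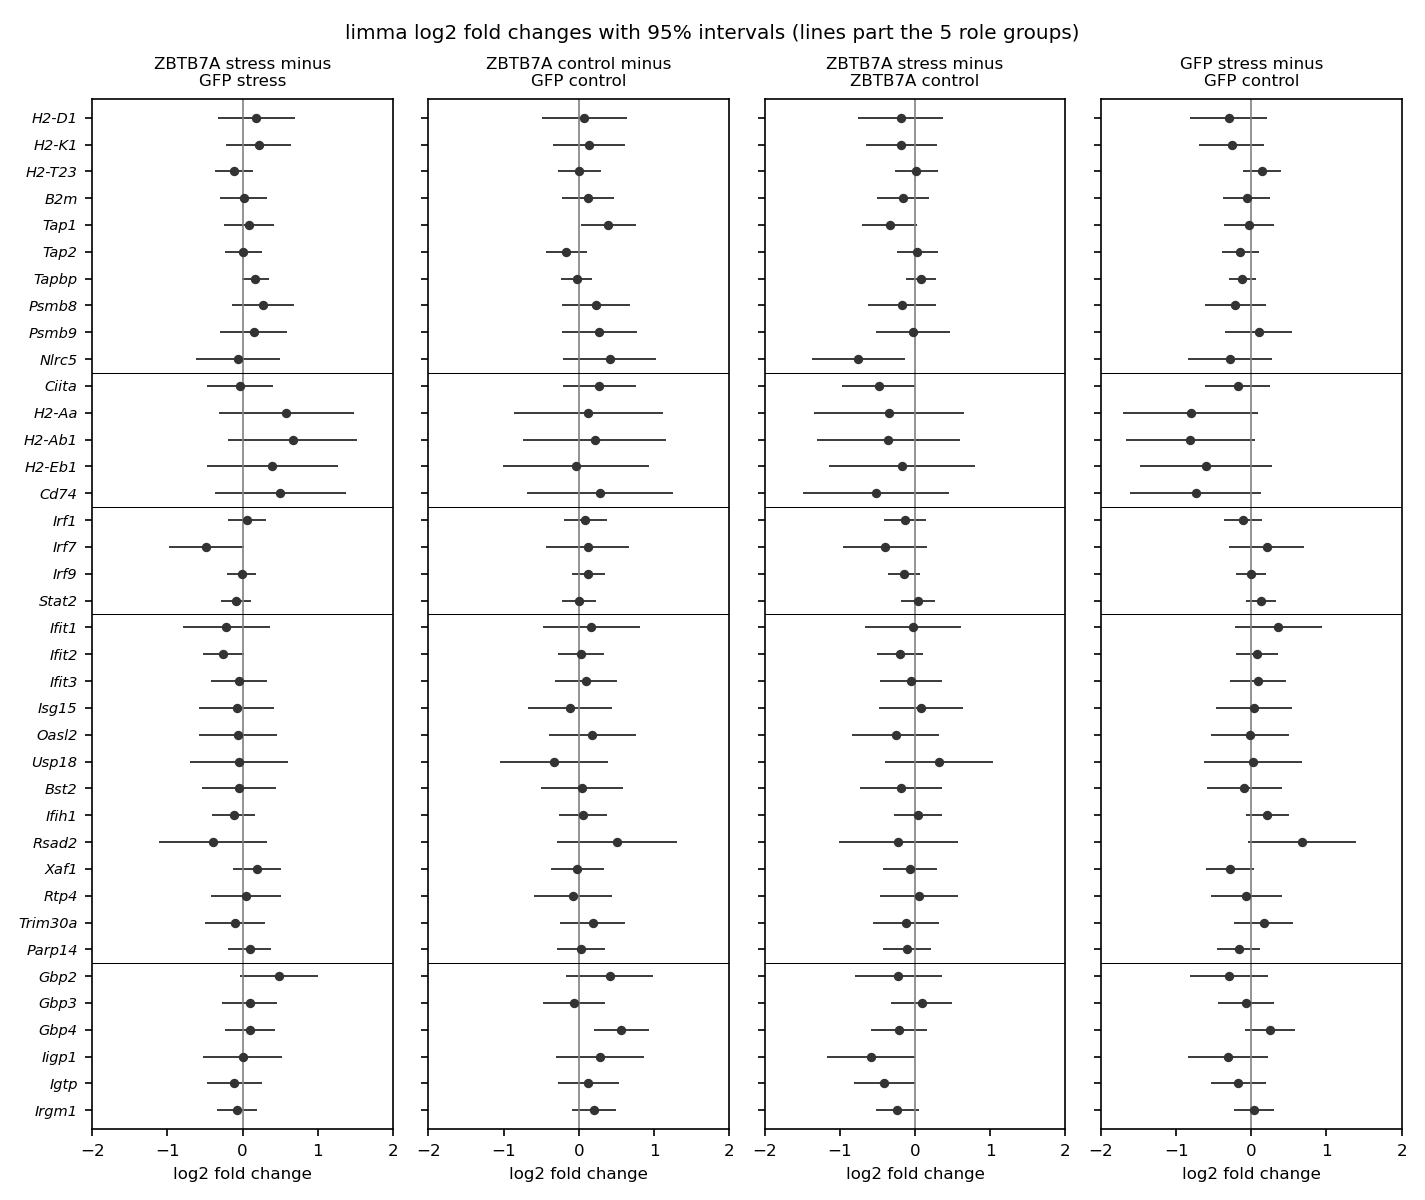
Log2 differences of all 38 genes in 4 contrasts from the limma fit, as points with 95% intervals; horizontal lines part the 5 roles in the order class I, class II, transcription factors, type I induced and GTPases. The class II genes other than Ciita have the widest intervals, and the interval of Gbp4 for ZBTB7A control minus GFP control (0.20 to 0.93) excludes 0 before adjustment.

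Averaged over stress, the libraries labelled ZBTB7A set against those labelled GFP gave a median of 0.06 over the members, against -0.00 over all genes, with 27 of 38 above 0. The median was 0.01 without ZBTB7A stress 17 and with the microglia level as a covariate, and 0.09 without the 3 libraries with neutrophil markers. Unadjusted p was under 0.05 for 2 members, both higher with ZBTB7A, against 2.76% of all genes higher, 3.31% lower and 6.07% in either direction. They were Gbp4 at 0.33 ± 0.12 and Gbp2 at 0.45 ± 0.19 (limma adjusted p = 0.767 for both). Their number was 1 without ZBTB7A stress 17, GFP control 11 or the 3 libraries with neutrophil markers and with the striatal or microglia level as a covariate, and 4 without ZBTB7A stress 26, ZBTB7A control 15 or GFP control 10 and with array weights. Tap1 (0.24 ± 0.12), Psmb8 (0.25 ± 0.15) and H2-Ab1 (0.44 ± 0.31) had the next smallest p. Averaged over virus, stress against control gave a median of -0.11 against -0.00 over all genes, with 12 of 38 above 0. Here 4 members, all lower with stress, had an unadjusted p under 0.05, against 1.73% of all genes lower, 1.59% higher and 3.32% in either direction. They were Nlrc5 at -0.52 ± 0.20, Iigp1 at -0.45 ± 0.19, Igtp at -0.29 ± 0.13 and Ciita at -0.33 ± 0.16, with a limma adjusted p of 0.999 each, and Cd74 stood at -0.63 ± 0.31. The count was 12 without ZBTB7A stress 17, 7 with array weights and 1 without ZBTB7A stress 7 or ZBTB7A control 23, and 2 without ZBTB7A stress 26, ZBTB7A control 24, GFP stress 4 or 21, or GFP control 2, 10 or 11. The share of all genes in those fits is not given here. These averages share their libraries with the contrasts above.

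The interaction asks whether the ZBTB7A effect under stress differed from that without stress. An unadjusted p under 0.05 was reached by 0 of 38 members, against 7.42% of all genes (5.64% higher and 1.78% lower). The median over the members was -0.10, with 16 of 38 above 0, against 0.01 over all genes, and it was 0.02 without the 3 libraries with neutrophil markers, -0.24 without ZBTB7A stress 17 and -0.01 without ZBTB7A stress 26. The count of members was 5 with array weights and 2 each with edgeR, with DESeq2 and without ZBTB7A stress 17, and 1 without GFP stress 5, ZBTB7A control 14 or 15, or GFP control 19. The 7.42% belongs to the main fit, and the share of all genes in these other fits is not given here. The smallest p was that of Gbp4 at -0.46 ± 0.24 (limma adjusted p = 0.671). Rsad2 stood at -0.89 ± 0.52 and Irf7 at -0.60 ± 0.36, which were -0.15 and -0.32 without those 3 libraries. Tapbp (0.20 ± 0.13) and Irgm1 (-0.27 ± 0.19) had the next smallest p. The intervals of the interaction reach from -0.96 to 0.03 for Gbp4 and from -1.97 to 0.18 for Rsad2. They hold 0, and also a ZBTB7A effect much lower under stress than without it.

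Rsad2 (Entrez 58185) stood apart in the libraries with neutrophil markers. It had 35.1, 47.8, 55.1, 35.6 and 34.9 normalized counts in ZBTB7A stress, 33.0 to 149 (median 42.2) in GFP stress, 40.2, 33.1, 43.2, 109 and 39.8 in ZBTB7A control and 40.9, 44.4, 33.3, 32.5 and 21.2 in GFP control. In the 3 libraries it ran from 109 to 149, and in the other 20 from 21.2 to 55.1 with a median of 39.2. It was the 1 of 38 members (2.63%) above all other libraries in all 3, as were 56 of 16385 genes (0.342%). In the same 3 libraries S100a9 ran from 1103 to 1819.7, against 1.65 to 68.0 elsewhere, and the B cell gene Cd79a from 31.5 to 92.8, against 1.00 to 12.04. Isg15 ran from 37.3 to 75.5 in the 3 and from 19.5 to 53.3 in the others, and Usp18 from 20.02 to 46.2 and from 8.60 to 35.8, so both overlapped. Of the 3, GFP stress 13 and ZBTB7A control 23 also stood apart for Col1a1 and Col1a2, listed as meningeal fibroblast markers. Col1a1 reached 15313 and 2008 normalized counts there, against 114 to 438 elsewhere, and Col1a2 reached 7416 and 1547, against 194 to 714. GFP stress 12 did not depart, at 240 and 399. Dcn, of the same list, did not separate them, at 539 and 202 against up to 555 elsewhere. The part of neutrophils, B cells and fibroblasts in the Rsad2 values was not tested.

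**Figure D4:**
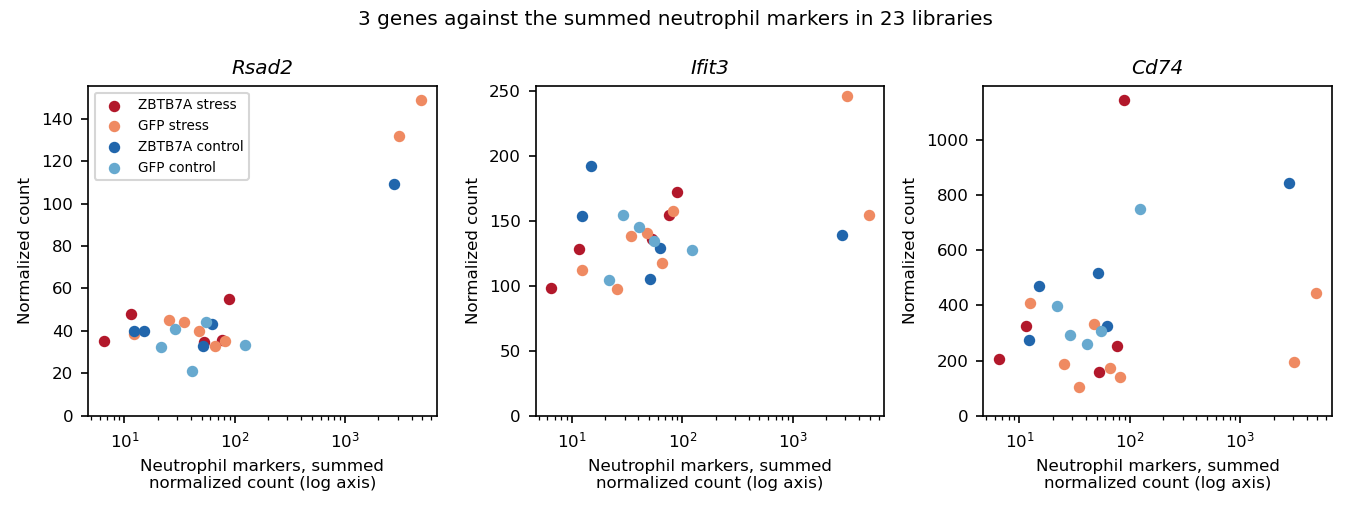
Normalized counts of Rsad2, Ifit3 and Cd74 in 23 libraries (vertical axis) against the summed normalized count of 4 neutrophil markers (horizontal log axis), coloured by group. The 3 libraries at the right, GFP stress 13 and 12 and ZBTB7A control 23, are the highest for Rsad2 at 109 to 149, while in Ifit3 and Cd74 they overlap the others.

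A regulator was compared with a gene it is known to control, or for Stat2 with its partner Irf9, over the 23 libraries in 6 relations. Each had 100000 permutations, with Benjamini-Hochberg adjustment over the 6. Nlrc5 and Tap1 had the highest r of the 6 (Pearson r = 0.81, adjusted permutation p = 6e-05; Spearman rho = 0.73, adjusted p = 0.0006), and r was 0.88, 0.76 and 0.75 within the runs of title numbers. The unadjusted permutation p of that r, 1e-05, is the smallest that these permutations can give. Irf1 and Gbp2 gave r = 0.71 (adjusted p = 0.0006) and rho = 0.64 (adjusted p = 0.00432), with 0.71, 0.85 and 0.74 within runs. Leaving out the 2 libraries farthest from the median of the regulator gave r = 0.82 for Nlrc5 and Tap1 and 0.62 for Irf1 and Gbp2. Ciita and Cd74 gave r = 0.56 (adjusted p = 0.0081) and rho = 0.56 (adjusted p = 0.0126), and 0.58 without the 2 farthest. For deviations from the group means r was 0.48 (adjusted p = 0.0307) and rho was 0.35 (adjusted p = 0.124), and within runs r was 0.14, 0.15 and 0.73, so the relation was weak in the first 2.

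Irf7 and Isg15 gave r = 0.66 (adjusted permutation p = 0.00124) and rho = 0.52 (adjusted p = 0.0189), and Irf7 and Ifit3 gave r = 0.44 (adjusted p = 0.0434) and rho = 0.35 (adjusted p = 0.129). Without the 2 libraries farthest in Irf7, GFP stress 13 and 12, r was 0.43 (adjusted p = 0.0796) and 0.22 (adjusted p = 0.349), so over all runs neither passed without them. Both of those libraries are in run 2, and runs 1 and 3 hold neither. Within runs 1, 2 and 3, r was 0.67, 0.73 and -0.02 for Isg15 and 0.34, 0.58 and 0.14 for Ifit3. Stat2 and Irf9 gave r = -0.00 (adjusted p = 0.992) and rho = 0.11 (adjusted p = 0.602), and r = 0.25 without the 2 farthest. Within runs their r was -0.19, -0.26 and -0.04. The libraries differ in depth and tissue makeup, whose part in these relations was not tested.

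**Figure D5:**
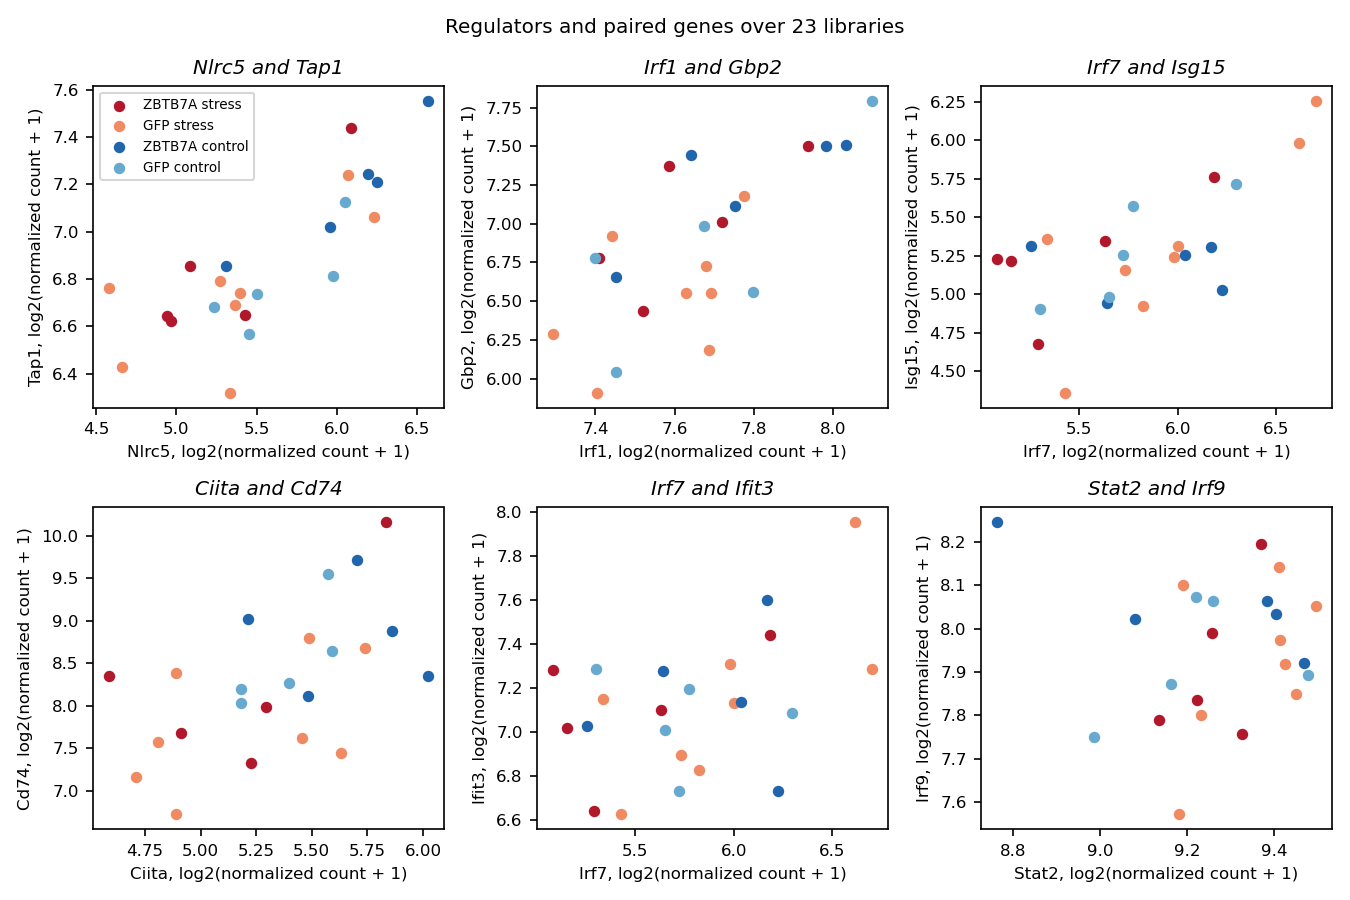
Each panel plots 1 gene against the regulator named first in its title, both as log2(normalized count + 1), with 1 point per library coloured by group. Nlrc5 and Tap1 move together across the libraries (r = 0.81), while for Irf7 with Isg15 the 2 GFP stress points at the right extend the relation and Stat2 with Irf9 has none (r = -0.00).

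Other genes of the pathway, outside the 38, were taken from a list of 64, of which 63 matched and 56 passed the filter. At an adjusted p under 0.05 limma called 0 of 56 in each of the 7 contrasts. The ligands were at or near 0: Ifnb1 and Ifna4 were at 0 in 23 of 23 libraries, Ifna2 and Ifnl2 in 22 and Ifng in 21. The listed genes lay above 0 for 41 of 56 in ZBTB7A control against GFP control (median 0.05) and for 13 of 56 in ZBTB7A stress against ZBTB7A control (median -0.05). Both of these contrasts use the ZBTB7A control libraries. In ZBTB7A stress against GFP stress 31 of 56 lay above 0 (median 0.05), and in GFP stress against GFP control 25 of 56 (median -0.02).

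Cgas, the sensor of cytosolic DNA, had 42.6 ± 3.97 normalized counts in ZBTB7A control and 31.5 ± 5.50 in GFP control (SD, n = 5 each), a log2 difference of 0.44 ± 0.19 (limma adjusted p = 0.9999). Psmb10, the third immunoproteasome subunit, had 646 ± 86.0 in ZBTB7A stress (n = 5) and 778 ± 63.6 in GFP stress (n = 8), a difference of -0.27 ± 0.08 (limma adjusted p = 0.183). Irf2, which opposes Irf1 at shared sites, had 602 ± 54.7 in ZBTB7A stress and 718 ± 49.4 in GFP stress, a difference of -0.26 ± 0.10 (limma adjusted p = 0.236). Mavs, the adaptor of the RNA sensors, had 205 ± 14.2 in GFP stress (n = 8) and 249 ± 61.4 in GFP control (n = 5), a difference of -0.25 ± 0.11 (limma adjusted p = 0.419). Mx2, an antiviral GTPase, had 17.7 ± 2.59 in ZBTB7A stress and 23.5 ± 5.12 in ZBTB7A control, a difference of -0.37 ± 0.26 (limma adjusted p = 0.9997). None of these passed in this fit. With array weights 2 of the 56 passed for ZBTB7A stress against GFP stress, Psmb10 and Irf2, where 14% of all genes did. Of the other genes of smallest p, Sp100 stood at 0.41 ± 0.22 in ZBTB7A control against GFP control and at -0.29 ± 0.22 in ZBTB7A stress against ZBTB7A control, which share a group. Ifngr1, a chain of the receptor for interferon gamma, stood at -0.23 ± 0.12 in GFP stress against GFP control and was the 1 of the 56 that passed there with array weights, where 4.08% of all genes did. Averaged over stress, Psmb10 stood at -0.20 ± 0.06 and Cgas at 0.38 ± 0.13, and averaged over virus H2-Q4 stood at -0.28 ± 0.17 and Irf5 at -0.19 ± 0.12. In the interaction Mavs stood at 0.33 ± 0.17 and Tlr3, a sensor of double-stranded RNA, at 0.30 ± 0.15.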

How the data were processed

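Per the labels' protocols, Trizol extraction and a column cleanup preceded TruSeq RNA v2 library preparation. The deposited values are treated as a signal and called normalized counts: 100% were whole multiples of 1 step per library within a tolerance of 0.02 reads, as whole reads divided by 1 size factor per library would be. Tools listed in the submitters' processing notes are DESeq2 2.11.40.6, featureCounts 2.0.1 and HISAT2 2.1.0, with mm10 and mm9 as builds of unstated role, and the use of strand is not given in the sources used here. Normalized totals were 21.5 to 25.2 M per library.

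From the 27606 entries 428 identical repeats were removed. Values were taken as log2(normalized count + 1), and log2 differences understate the change of low genes. A limma fit (R 4.3.3, limma 3.58.1) of 4 group means with trended, robust empirical Bayes gave 7 contrasts, tested two-sided with Benjamini-Hochberg adjustment over 16385 genes. Alternatives were a pseudocount of 5, no filter, array weights, recovered reads in DESeq2 1.42.0 or edgeR 4.0.16, scaling by TMM, covariates for the run of title numbers, striatal or microglia level, the compared groups alone, and each library left out. The fit was tested on simulated data. Title numbers pass through the 4 groups in order in 3 runs of 8, 7 and 8 libraries, and the labels do not say what a run is.

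The members, lists, tests and alternatives were chosen with earlier results of these data known, and the fit without 3 libraries with neutrophil markers was added after seeing the data. Values by library are given for a panel of members by role and those of smallest p, and differences for members that passed or else the 5 of smallest p in each contrast, with 2 other pathway genes. Rigi, 1 of the 64 other pathway genes listed, matched no symbol. H2, Ifit, Gbp and Trim30 genes have near-identical copies between which reads may be split. Python 3.11.15 with scipy 1.17.1, pandas 2.3.3 and matplotlib 3.10.9 served for tables and figures.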

Additional observations from a re-analysis of the deposited data

Results flagged for a closer look

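In 152 sets of values (38 genes in 4 groups), the highest and lowest library were tested for a gap to the rest. Dixon's criterion was used, which flags about 1 set in 20 by chance for normally distributed values in independent sets. Normalized counts were used without a log and genes of 1 library can move together, so that rate is only a rough guide. The criterion marked 21 sets in 17 genes, 9 of them in ZBTB7A stress 17. In that library H2-K1 reached 2009.9 normalized counts against 753 to 1086 in the other 4 of the group, H2-T23 453 against 277 to 326, Tap1 173 against 97.5 to 115 and Tap2 239.6 against 173 to 183. H2-Aa reached 470.1 against 69.7 to 148, H2-Ab1 402 against 70.7 to 114, H2-Eb1 428 against 72.7 to 129, Cd74 1142 against 159 to 325 and Bst2 191 against 81.8 to 110.4.

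GFP stress 13 stood apart for 4 class I genes, with H2-D1 at 1673 against 658 to 1051 in the other 7 of the group, H2-K1 at 1497 against 745 to 1092, Tapbp at 832 against 584 to 694 and Psmb8 at 129 against 87.2 to 98.9. GFP control 10 stood apart for H2-K1 at 1758 against 895 to 1109, H2-Aa at 328 against 115 to 139.7, Cd74 at 750.2 against 261 to 397 and Irgm1 at 267 against 211 to 217. GFP stress 12 was high for Ifit3, at 247 against 97.7 to 158, and ZBTB7A control 23 for Rsad2, at 109 against 33.1 to 43.2. The low ends marked were Ifih1 at 96.2 in ZBTB7A control 6, against 138 to 146 in the others, and Gbp4 at 34.7 in GFP control 2, against 60.0 to 67.7. What sets these libraries apart was not tested.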

How the results depend on the processing

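No paired analysis was possible because no title number is shared between groups. The count of members past the threshold was 0 in every contrast under every alternative run, and each median of the members moved by less than 0.22 (log2), the pooled SD of their level between libraries. The count of all genes did move from 0. DESeq2 called 46 genes for the virus effect with stress, 39 for stress under GFP, 7 for the virus effect averaged over stress, 3 for the interaction, 1 for stress under ZBTB7A and 1 for stress averaged over virus. Array weights called 2287, 668 and 2068 for the virus effect with stress, stress under GFP and the interaction, and the compared groups alone 2 for the virus effect with stress. With 1 library left out the count ran from 0 to 3 for the virus effect with stress, highest without GFP stress 13, and from 0 to 79 for the interaction, highest without ZBTB7A control 6. The cause was not tested.

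Of the genes named, Ifit2 alone changed sign, to 0.0131 for the virus effect with stress with the striatal level as a covariate. The relation of Irf7 with Ifit3 was r = 0.22 without the 2 farthest libraries, 0.21 without the 3 libraries with neutrophil markers and 0.27 to 0.53 with 1 library left out, lowest without GFP stress 12. That of Irf7 with Isg15 was 0.43 without the 2 farthest and 0.43 without those 3. That of Stat2 with Irf9, near 0, turned to 0.0097 with TMM scaling, 0.0621 for deviations from group means and 0.25 without the 2 farthest, and ran from -0.11 to 0.34 with 1 library left out, highest without ZBTB7A control 6. Counts limit the precision of the low genes, such as Usp18.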
